A study of Mus musculus with 4 samples.

Results

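The mouse has many replication-dependent histone genes, and the gene tables of this series list them under their older names. All symbols beginning with Hist1h, Hist2h, Hist3h or Hist4h were taken, which gave 68 symbols of 27998 gene rows in the tables made with the version 2 reagent kit and of 31053 in those made with version 3. The 68 symbols comprised 6 genes for the linker histone H1, 19 for H2A, 18 for H2B, 12 for H3 and 13 for H4, and 1 of the H2A symbols, Hist1h2al, is annotated as a processed pseudogene. They were listed under 71 identifiers, of which 65 stood in both kinds of table, and Hist1h2al was listed with kit 2 only. Of the 69 identifiers found in the GENCODE M21 annotation of GRCm38, 55 lay on chromosome 13, 11 on chromosome 3, 2 on chromosome 11 and 1 on chromosome 6.

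The unique molecular identifiers (UMIs, which count captured RNA molecules) came from intestinal adenomas of C57BL/6 mice aged 11 weeks that carry the ApcMin/+ allele, a truncating mutation of the Wnt pathway brake Apc. The ApcMin libraries were labelled ApcMin/+;Lef1 +/+ and the VApcMinL libraries ApcMin/+;Lef1 fl/fl; Villin-Cre, in which Cre recombinase driven by the Villin promoter is active in intestinal epithelium and constitutively deletes Lef1, a DNA-binding partner of β-catenin. Each genotype had 2 libraries, replicate 1 with kit 2 and replicate 2 with kit 3, and every library pooled 3 to 10 tumours that were dissociated and run unsorted on the 10x 3′ platform. Within each kit the ApcMin value is given before the VApcMinL value, and levels are in CPM, the UMIs of a gene per 1000000 UMIs summed over the cells of a class in a library.

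Library totals were 44660305 to 128247396 UMIs, and 2071 to 4217 cells per library had at least 2000 UMIs and at most 20% mitochondrial UMIs. The mitochondrial limit removed 61.6% of the barcodes of ApcMin replicate 2 and 20.4 to 26.5% of those of the other libraries. Lef1 itself stood at 7.20 and 21.6 (kit 2) and 26.1 and 20.2 (kit 3) CPM in cycling adenoma cells, so that with kit 2 the VApcMinL value was the higher and with kit 3 the lower (log2 difference 0.54 ± 0.50 (SE), edgeR adjusted p = 1.0). Counts from the 3′ end cannot show whether exons further upstream were removed, so this level does not check the label. Xist, which is transcribed from the inactive X chromosome of female cells, stood at 0.124 and 1051 (kit 2) and 0.0895 and 322 (kit 3) in the same cells although all 4 libraries were labelled male. The libraries are therefore called by their labels throughout. Kept cells of different libraries shared 10 barcodes in all.

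Cell classes were gated on marker UMIs and cycling on at least 3 UMIs of Mki67, Top2a and Cdk1, none of which is a histone gene. Adenoma cells were epithelial cells with at least 5 UMIs of 7 Wnt target genes that mark Apc-mutant epithelium (Notum, Nkd1, Wif1, Prox1, Dkk2, Dkk3 and Axin2), and they comprised 247 and 208 cycling cells with kit 2 and 206 and 1229 with kit 3, beside 222, 342, 197 and 880 non-cycling ones. In cells of the crypt gate, Slc12a2 was found in 93.3 to 100% of cells and gave 26.9 to 61.9% of the crypt marker UMIs, and the stem cell marker Olfm4 was found in 6.25 to 80.0% of cells, so these cells are called crypt-gated and not stem cells. Immune marker UMIs made up 3.67 to 37.3 CPM in adenoma cells against 4315 to 7020.4 in immune cells. A gate on raw UMIs also takes deeper cells: the median was 27622 to 47842 UMIs in cycling and 15644 to 27062 in non-cycling adenoma cells over the libraries.

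Replication-dependent histones package newly made DNA, and their genes are read mainly in S phase. NPAT, activated by cyclin E and CDK2, drives their transcription in nuclear bodies at the gene clusters. Most of their mRNAs end in a conserved stem-loop in place of a poly(A) tail, and the stem-loop binding protein SLBP guides their processing, translation and decay at the end of S phase. Some of the genes also give transcripts that read past the stem-loop to a polyadenylation site, and these are known from cells that have left the cycle. Libraries primed on poly(A), like those here, capture the tailed forms, together with any stem-loop mRNA primed at an internal run of A, so all levels below are of captured ends and not of total histone mRNA. With summed cells, fewer cells in S phase and less histone RNA per cell cannot be told apart.

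The stem-loop shows which annotated ends could carry a tail, and it is printed for members on which the results turn. A 16-base stem-loop was found in the annotated transcripts of 46 of the 69 identifiers, in 8 distinct forms, and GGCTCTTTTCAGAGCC was the form in 26 of them. In the following sequences (GENCODE M21, sense strand, written as DNA) the stem-loop stands in capitals with up to 5 bases on either side.
Hist1h2ap: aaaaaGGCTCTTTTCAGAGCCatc
Hist1h2ae: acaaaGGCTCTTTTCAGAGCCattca
Hist1h1c: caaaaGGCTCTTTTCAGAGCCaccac
Hist1h1e: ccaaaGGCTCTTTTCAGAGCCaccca
Hist3h2a: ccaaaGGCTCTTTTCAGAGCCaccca
Hist3h2ba: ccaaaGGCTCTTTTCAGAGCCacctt
Hist1h4i: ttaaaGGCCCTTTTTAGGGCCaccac
Hist1h4d: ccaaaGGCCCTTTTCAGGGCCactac
Hist1h3c: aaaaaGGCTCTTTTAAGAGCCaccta
The H2A, H2B and H1 genes shown shared all 16 bases. Hist1h4i, Hist1h4d and Hist1h3c each had another form, found in 2, 7 and 6 identifiers in that order. The members differed more in what was annotated after the stem-loop: the transcript ended 3 bases past it in Hist1h2ap, 151 in Hist1h2ae, 169 in Hist3h2ba, 840 in Hist1h1c, 1153 in Hist1h1e and 1643 in Hist3h2a. In 23 identifiers more than 100 annotated bases followed it. Hist1h2bc (chr13:23684199-23692908, plus strand), Hist1h1b (chr13:21779883-21780625, minus strand) and Hist1h1a (chr13:23763666-23764406, plus strand) had no match in their annotated transcript. The annotated transcripts of Hist1h1b and Hist1h1a are 743 and 741 bases long. An annotated transcript that stops short would not hold the stem-loop, so no match does not show that a gene lacks it. The only annotated transcript of Hist1h2bc has 1156 bases, far fewer than the span above, so parts of the gene are not in it. Those parts were not searched.

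The promoters of 5 H1 genes are printed because these genes did not move in 1 direction between non-cycling and cycling cells. The windows are 110 bases long and end 16 bases before the RefSeq start (GRCm38.p6), with AAACACA (the H1 box), CCAAT or its reverse complement ATTGG, and TATAAA in capitals.
Hist1h1c, chr13:23738682-23738791, plus strand: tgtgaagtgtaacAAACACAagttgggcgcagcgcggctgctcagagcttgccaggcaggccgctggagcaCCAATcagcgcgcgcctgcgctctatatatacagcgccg
Hist1h1b, chr13:21780641-21780750, minus strand: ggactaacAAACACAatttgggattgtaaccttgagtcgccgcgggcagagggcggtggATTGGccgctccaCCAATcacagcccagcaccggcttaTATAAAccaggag
Hist1h1e, chr13:23622574-23622683, minus strand: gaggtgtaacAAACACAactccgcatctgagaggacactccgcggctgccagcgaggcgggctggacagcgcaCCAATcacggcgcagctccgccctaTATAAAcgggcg
Hist1h1a, chr13:23763543-23763652, plus strand: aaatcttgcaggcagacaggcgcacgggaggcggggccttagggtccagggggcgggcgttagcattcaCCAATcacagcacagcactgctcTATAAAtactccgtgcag
Hist1h1d, chr13:23554907-23555016, plus strand: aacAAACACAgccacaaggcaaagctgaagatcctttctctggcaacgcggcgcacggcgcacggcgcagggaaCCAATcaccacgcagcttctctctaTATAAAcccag
Both strands were searched for 4 motifs in the 63 distinct promoters found for 62 of the symbols, each from 250 bases before to 50 after the start. Promoters of neighbouring H2A and H2B genes on opposite strands can overlap, so 1 site can count in both families. The octamer of Hist1h2ae is the same site as that of Hist1h2bg. So it is for Hist1h2aa with Hist1h2ba and for Hist1h2ah with Hist1h2bk. AAACACA lay in 5 of 6 H1 promoters and in 14.3% of all member promoters, against 7.18% of all 32851 mouse promoters in the table. The Hist1h1a promoter held no AAACACA. The octamer ATTTGCAT lay in 7 of 18 H2A and 7 of 17 H2B promoters and in none of H1, H3 or H4, against 1.74% of all promoters. CCAAT lay in 85.7% of member promoters, with H4 lower at 3 of 12, against 37.4% of all, and TATAAA in 55.6% against 13.6%. No motif contains another, though TATAAA and AAACACA can share 3 letters. These matches describe the letters only.

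Histone UMIs were a small part of each library, 269674 of 235368247 UMIs in the kept cells. Of the 68 members, 57 had at least 100 UMIs, 9 had 1 to 99 and 2, Hist1h2ba and Hist1h2bq, had none, which allows a level of up to 0.0127 CPM by counting error alone. A UMI was seen in every library for 62 members. Levels of different genes are compared as UMIs of captured 3′ ends, which do not scale with transcript length. In non-cycling adenoma cells 1 H2B gene led by far: Hist1h2bc took 54.3% and 56.2% (kit 2) and 41.2% and 42.9% (kit 3) of all histone UMIs. The linker histone gene Hist1h1c took a further 19.3% and 15.3% (kit 2) and 20.9% and 15.5% (kit 3). In cycling adenoma cells Hist1h2bc took 21.3% and 28.3% (kit 2) and 13.6% and 15.2% (kit 3). Hist1h2ap, an H2A gene at chr13:21833026-21833507 on the minus strand, took 39.2% and 25.7% (kit 2) and 5.97% and 13.2% (kit 3), and the H1 gene Hist1h1b took 2.94% and 4.46% (kit 2) and 20.3% and 19.2% (kit 3). The share of Hist1h2bc was above that of Hist1h2ap in 3 of 4 libraries, and Hist1h1b had the largest of the 3 shares in both kit 3 libraries. For Hist1h2ap and for Hist1h1b the shares of the 2 kits did not overlap.

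**Figure D1:**
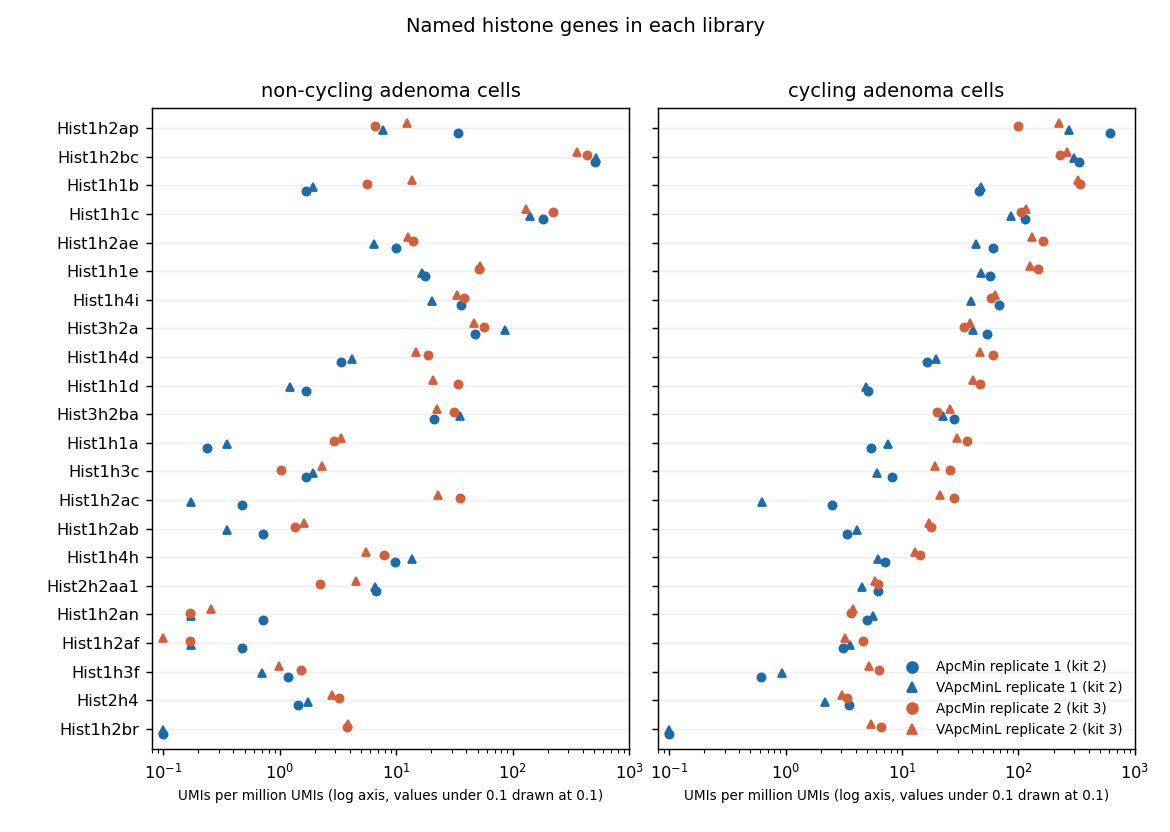
Named histone genes in each library. CPM (log axis, values under 0.1 drawn at 0.1) in non-cycling (left) and cycling (right) adenoma cells, with 1 point per library, circles for ApcMin, triangles for VApcMinL, blue for kit 2 and orange for kit 3. Hist1h2bc leads on the left, and Hist1h2ap, Hist1h1b and Hist1h2ae stand far higher on the right in all 4 libraries, whereas Hist1h2br was at 0 in both kit 2 libraries.

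Summed over all members, cycling adenoma cells had more histone UMIs than non-cycling ones in every library, but by a small factor. The summed level was 1569 and 1061 (kit 2) and 1666 and 1705 (kit 3) CPM in cycling cells, with a mean of 1500.1 ± 298 (SD, n = 4). In non-cycling adenoma cells it was 938 and 923 (kit 2) and 1057 and 831 (kit 3), with a mean of 937 ± 92.8 (SD, n = 4). The 2 ranges just failed to overlap, VApcMinL replicate 1 being lowest among the cycling values and ApcMin replicate 2 highest among the non-cycling ones. With a mitochondrial limit of 10% they overlapped, the lowest cycling value being 1062 and the highest non-cycling one 1099. The ratio of cycling to non-cycling cells was 1.67 and 1.15 (kit 2) and 1.58 and 2.05 (kit 3). It was far larger without the 2 members that lead in non-cycling cells: for all members other than Hist1h2bc and Hist1h1c the ratio was 4.52 and 2.57 (kit 2) and 3.33 and 3.85 (kit 3). By family, the H2A ratio was 7.11 and 3.50 (kit 2) and 3.25 and 4.51 (kit 3), whereas the H2B ratio lay under 1 in all libraries at 0.740 and 0.621 (kit 2) and 0.674 and 0.881 (kit 3).

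Histone UMIs were also present outside cells. In barcodes with 1 to 100 UMIs, which hold free RNA, the summed level was 789 and 759 (kit 2) and 895 and 951 (kit 3) CPM, close to that of non-cycling adenoma cells. Hist1h2bc stood at 325 and 394 (kit 2) and 341 and 320.2 (kit 3) and Hist1h2ap at 51.2 and 30.6 (kit 2) and 14.1 and 44.3 (kit 3) there. The free RNA level of Hist1h2ap exceeded its level in non-cycling adenoma cells in every library. The part of free RNA in the UMIs of a cell was not measured. The Hist1h2ap UMIs of non-cycling cells can therefore not be split into expression and free RNA.

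**Figure D2:**
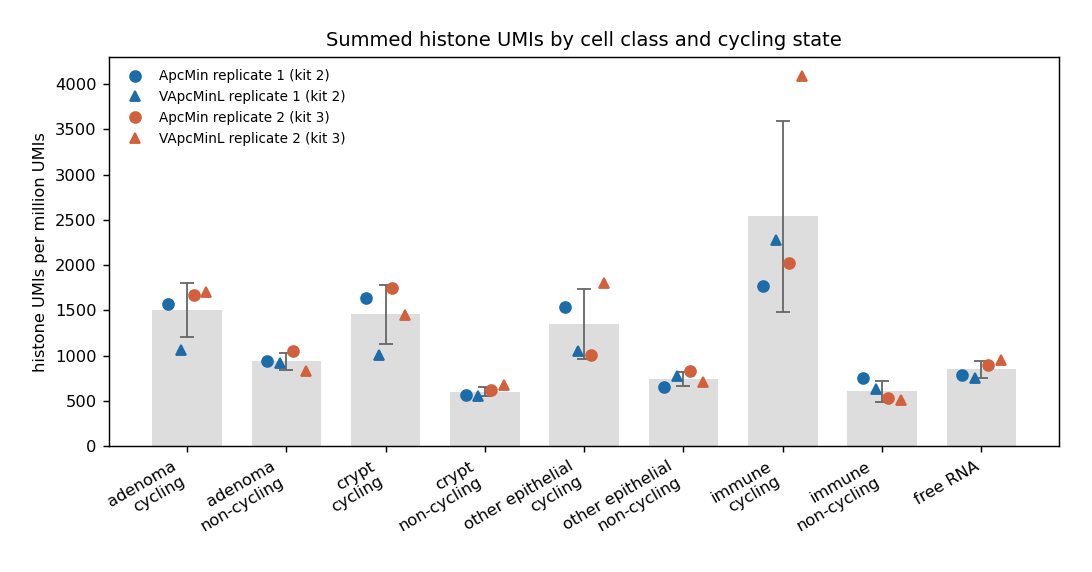
Summed histone UMIs by cell class and cycling state. Points are libraries, bars the mean of 4 libraries and error bars 1 SD, in summed histone CPM, and the bar at the right shows free RNA. Cycling cells exceed non-cycling cells in every library and class, the adenoma values being 1061 to 1705 against 831 to 1057, and the cycling immune values rest on 9 to 21 cells per library.

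The first comparison asks which histone genes differed between cycling and non-cycling adenoma cells, with summed counts per library, state and class and the library as a block. Linker, H2A, H2B, H3 and H4 genes were all among those higher in cycling cells, led by Hist1h1b, Hist1h2af and Hist1h2ap, and 2 abundant genes, Hist1h2bc and Hist1h1c, were lower. Of the 68 members 50 passed the filter on low counts, 31 were called higher, against 19.9% of all genes tested, and 2 lower, against 20.2%. Their median log2 difference was 1.42, that of all genes -0.05. A member that passed the filter through its cycling cells had to differ, so these counts are a description and stand for the tested members alone. Leaving out 1 library at a time gave 24 to 31 higher and 2 to 3 lower, and without the library block 15 were higher and none lower.

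Among the H1 genes 4 of 5 tested rose and 1 fell. Hist1h1b stood at 46.1 and 47.4 (kit 2) and 338 and 327 (kit 3) CPM in cycling cells and at 1.66 and 1.92 (kit 2) and 5.61 and 13.7 (kit 3) in non-cycling ones, without overlap within either kit. Its log2 difference was 5.01 ± 0.21 (SE), edgeR adjusted p = 2.1e-06. Hist1h1a rose from 0.237 and 0.348 (kit 2) and 2.89 and 3.35 (kit 3) to 5.46 and 7.53 (kit 2) and 36.1 and 29.7 (kit 3) (3.44 ± 0.18 (SE), edgeR adjusted p = 4.8e-06). Hist1h1e and Hist1h1d, which both had counts in non-cycling cells as well, rose less. Hist1h1e (chr13:23620629-23622558, minus strand) went from 17.8 and 16.6 (kit 2) and 51.5 and 52.1 (kit 3) to 57.2 and 48.1 (kit 2) and 148 and 125 (kit 3) (1.51 ± 0.08 (SE), edgeR adjusted p = 5.3e-06), and its gene model overlaps Hist1h2be on the same strand, so reads of the shared part cannot be assigned. Hist1h1d had a log2 difference of 0.91 ± 0.17 (SE).

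Hist1h1c (chr13:23738808-23740367, plus strand) went the other way, at 115 and 86.9 (kit 2) and 106 and 117 (kit 3) in cycling and 181 and 141 (kit 2) and 221 and 129 (kit 3) in non-cycling adenoma cells. It was lower in cycling cells in every library, by a log2 difference of -0.60 ± 0.12 (SE), edgeR adjusted p = 0.0059. Free RNA held 151 and 129 (kit 2) and 146 and 131 (kit 3) of it, above the cycling level in every library and under the non-cycling level in 3 of 4. Expression and free RNA cannot be told apart in the cycling level. The make-up of the captured linker histone RNA therefore differed. Hist1h1c held 89.5% and 87.6% (kit 2) and 70.1% and 58.8% (kit 3) of H1 UMIs in non-cycling cells and 50.2% and 44.6% (kit 2) and 15.7% and 18.3% (kit 3) in cycling cells. Hist1h1b held 20.2% and 24.3% (kit 2) and 50% and 51.1% (kit 3) of H1 UMIs in cycling cells. The direction was shared by all libraries, while the sizes of these shares depended on the kit.

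The H2A genes, which code for 1 of the 4 core histones around which DNA is wound, had 9 of 12 tested members higher and none lower. Hist1h2ap stood at 615 and 273 (kit 2) and 99.5 and 225 (kit 3) in cycling and 33.9 and 7.67 (kit 2) and 6.63 and 12.3 (kit 3) in non-cycling cells (log2 difference 4.37 ± 0.18 (SE), edgeR adjusted p = 1.9e-06). Hist1h2ae rose from 9.97 and 6.45 (kit 2) and 13.9 and 12.6 (kit 3) to 60.7 and 43.1 (kit 2) and 161 and 131 (kit 3) (3.21 ± 0.14 (SE), edgeR adjusted p = 2.6e-06). Both were higher in cycling cells in all 4 libraries. The low-count members Hist1h2af, Hist1h2an and Hist1h2ab, all under 20 CPM in cycling cells, rose by 4.83, 3.87 and 3.42 on the log2 scale. Hist1h2ac, Hist2h2aa1 and Hist3h2a did not pass the test, with log2 differences of -0.07, 0.32 and -0.44. Hist1h2a genes are near-identical in their coding parts, and reads that match several copies are not counted, so single members of the family are uncertain.

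H2B, the partner of H2A, had 7 of 13 tested members higher and 1 lower. The 1 that fell was the most abundant histone gene of non-cycling cells. Hist1h2bc stood at 334 and 299.9 (kit 2) and 226 and 259 (kit 3) in cycling and 509 and 519 (kit 2) and 435 and 356 (kit 3) in non-cycling cells, the lower value being the cycling one in every library. Its log2 difference was -0.66 ± 0.08 (SE), edgeR adjusted p = 3.5e-04. The cycling levels lay under those of free RNA in 3 of 4 libraries, and the non-cycling levels above them in all 4. Expression and free RNA cannot be told apart in the cycling levels. The members that rose were Hist1h2bb, Hist1h2bf, Hist1h2bj, Hist1h2bk, Hist1h2bn, Hist1h2bp and Hist2h2bb, each a small part of the family sum. Hist3h2ba had 27.8 and 22.6 (kit 2) and 19.9 and 25.6 (kit 3) in cycling and 21.1 and 35.2 (kit 2) and 31.3 and 22.3 (kit 3) in non-cycling cells, with overlapping ranges and a log2 difference of -0.12 ± 0.17 (SE).

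H3 and H4, which form the tetramer at the centre of the nucleosome, had 7 of 11 and 4 of 9 tested members higher and none lower. Hist1h3c rose by 3.08 ± 0.31 (SE) on the log2 scale and Hist1h3f by 1.82 ± 0.42 (SE). Hist1h4i, the most abundant H4 gene of cycling cells, went from 35.8 and 20.4 (kit 2) and 38.2 and 33.3 (kit 3) to 68.0 and 39.4 (kit 2) and 58.3 and 62.5 (kit 3) (0.88 ± 0.07 (SE), edgeR adjusted p = 6.0e-05). Hist1h4d rose by 1.85 ± 0.12 (SE), and Hist1h4h and Hist2h4 had values of 0.38 and 0.35 that did not pass the test. The H3 genes were 2.58 to 5.45% of histone UMIs in cycling cells and the H4 genes 7.18 to 9.64%, so neither family moved the sum much.

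The 65 identifiers present in both tables were also grouped by their annotated end, as a description with no test. More than 100 annotated bases past the stem-loop stood in 22, of which 21 passed the filter on low counts. Of 22 that ended within 100 bases 16 passed it, and of 21 without a match 13. Over all identifiers of a group, median levels in non-cycling adenoma cells were 6.20, 0.853 and 0.328 CPM and in cycling ones 7.69, 2.84 and 2.92. Differences between states are not compared over these groups, since members with low levels passed mainly through their cycling cells. Hist1h2bc, with the highest non-cycling level of all, fell in the group without a match, so the annotated stem-loop did not mark it.

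The same test in the other gated classes, added after seeing the data, again had Hist1h1b and Hist1h2ap higher in cycling cells. In crypt-gated cells, 34 members were tested, and 12 were higher (2.8% of all genes) and 1 lower (1.72%). Among other epithelial cells, 45 members were tested, and 37 were higher (27.3% of all genes) and 2 lower (28.4%). In immune cells, 28 members were tested, and 15 were higher (5.6% of all genes) and 0 lower (3.91%), with 1 lower at an unadjusted p under 0.05 by edgeR and 0 called lower by DESeq2. Hist1h1b rose by 4.67, 5.40 and 4.31 on the log2 scale in the 3 classes and Hist1h2ap by 4.57, 4.72 and 4.96. Hist1h2bc fell by 0.78 in crypt-gated and by 0.92 in other epithelial cells, and in immune cells its value of -0.44 did not pass the test. Its call was kept in 11 of 16 alternatives in crypt-gated cells and in 16 of 16 in other epithelial cells. Non-cycling crypt-gated cells of ApcMin replicate 2 numbered 16 and cycling immune cells 9 to 21 per library, which limits both tests. Without VApcMinL replicate 2 the crypt-gated counts were 5 higher and none lower. The cycling effect was larger in immune than in adenoma cells for 1 of 49 members, Hist1h2bk, an H2B gene, against 0.323% of all genes.

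The summed level of cycling immune cells was 1768 and 2279 (kit 2) and 2028 and 4093 (kit 3) CPM, and that of their non-cycling cells 757 and 628 (kit 2) and 532 and 509 (kit 3). Cycling crypt-gated cells had 1632 and 1008 (kit 2) and 1751 and 1444 (kit 3) and non-cycling ones 569 and 555 (kit 2) and 619 and 670.5 (kit 3). Other epithelial cells had 1534 and 1049 (kit 2) and 1009.9 and 1799.6 (kit 3) when cycling and 652 and 776 (kit 2) and 832 and 709 (kit 3) when not. Non-cycling adenoma cells were higher than non-cycling crypt-gated cells in every library. Cycling immune cells stood above cycling adenoma cells in every library as gated, and this order did not hold under all alternatives. With the cycling gate per 10000 UMIs, ApcMin replicate 1 had 1372 in immune and 1709 in adenoma cells. ApcMin replicate 2 had 1649 and 1666 with a floor of 5000 UMIs per cell, and 1637 and 1686 with the mitochondrial limit of 10%.

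To see where in the cycle the captured histone RNA lay, cycling adenoma cells with at least 10 UMIs of 18 S-phase and 18 G2/M genes, none a histone gene, were split by the share of S-phase UMIs. Cells at or above 66.7% are called S-leaning, those at or below 33.3% G2/M-leaning and the rest mixed, with 75, 81 and 87 cells in the order S-leaning, mixed and G2/M-leaning in ApcMin replicate 1, 65, 64 and 72 in VApcMinL replicate 1, 73, 61 and 61 in ApcMin replicate 2 and 361, 415 and 409 in VApcMinL replicate 2.

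The summed histone level was 1334 and 950.0 (kit 2) and 1332 and 1257 (kit 3) CPM in S-leaning cells, 1853 and 1157 (kit 2) and 2191 and 2023 (kit 3) in mixed cells and 1486 and 1081 (kit 2) and 1567 and 1777 (kit 3) in G2/M-leaning cells. It was highest in mixed cells in every library, and no histone gene was called higher in S-leaning than in G2/M-leaning cells. The split orders cells by their share of list UMIs, and the phase of a cell was not measured. Cells in S phase with fewer than 3 UMIs of Mki67, Top2a and Cdk1 are not in it, and mixed cells can be in S phase. The order of the groups is therefore not read as S phase against the rest of the cycle. Of 41 members tested none was called higher in S-leaning cells, against 3.94% of all genes, with 2 at an unadjusted p under 0.05, and DESeq2 also called none. In the other direction 12 were lower in S-leaning cells, against 4.24% of all genes, and the median log2 difference was -0.50 against 0.00 for all genes. The 12 were Hist1h3f, Hist1h2br, Hist1h2ab, Hist3h2a, Hist1h3c, Hist3h2ba, Hist1h3e, Hist1h4d, Hist1h4h, Hist1h1c, Hist1h4i and Hist1h2ae, with log2 differences from -1.25 to -0.45. Hist3h2a stood at 31.3 and 25.6 (kit 2) and 23.7 and 24.0 (kit 3) CPM in S-leaning cells and at 74.7 and 59.1 (kit 2) and 40.0 and 52.5 (kit 3) in G2/M-leaning cells, higher in the latter in all 4 libraries (-1.09 ± 0.10 (SE), edgeR adjusted p = 9.4e-05). Hist1h1c stood at 96.4 and 59.1 (kit 2) and 77.9 and 88.8 (kit 3) against 134 and 104 (kit 2) and 121 and 143 (kit 3) (-0.65 ± 0.07 (SE), edgeR adjusted p = 4.8e-04). The S-leaning levels of both genes lay under those of free RNA in every library. So did the G2/M-leaning level of Hist1h1c in all but VApcMinL replicate 2. These 2 genes kept the call in 15 of 16 alternatives each, but the count did not: it was 6 without ApcMin replicate 1, 6 without VApcMinL replicate 1, 2 without VApcMinL replicate 2, 6 with DESeq2 and 0 without the library block.

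Hist1h1b, Hist1h2ap and 4 other members were higher in mixed cells than in the mean of both ends of the split. A test of mixed cells against the mean of the other 2 groups, added after seeing the data, called 6 of 44 members higher, against 0.562% of all genes, and none lower by edgeR, against 0.0357%, with 0 at an unadjusted p under 0.05 and 0 by DESeq2. They were Hist1h1b, Hist1h1a, Hist2h2ac, Hist1h2ap, Hist1h2ae and Hist1h1e. Hist1h2ap stood at 868 and 336 (kit 2) and 147 and 300.5 (kit 3) in mixed cells, at 563 and 263 (kit 2) and 74.1 and 143 (kit 3) in S-leaning cells and at 429.6 and 228 (kit 2) and 87.2 and 220.3 (kit 3) in G2/M-leaning cells. The mixed value was the highest of the 3 in every library (log2 difference 0.71 ± 0.11 (SE), edgeR adjusted p = 0.0091). For Hist1h1b the mixed values were 71.7 and 70.0 (kit 2) and 521 and 454 (kit 3), beside 43.7 and 48.7 (kit 2) and 297 and 254 (kit 3) in S-leaning and 24.4 and 24.5 (kit 2) and 207 and 259.9 (kit 3) in G2/M-leaning cells (0.97 ± 0.10 (SE), edgeR adjusted p = 0.0012). Without VApcMinL replicate 2 the count was 3, without ApcMin replicate 1 it was 2, and without the library block it was 0. The family sums did not all peak there: the H2B and the H4 sum were each higher in G2/M-leaning than in mixed cells in 3 of 4 libraries. Hist1h2bc, the largest part of the H2B sum, stood at 289 and 287 (kit 2) and 204 and 244 (kit 3) in mixed and 409 and 342 (kit 2) and 224 and 289 (kit 3) in G2/M-leaning cells and passed neither test. Mixed cells, with UMIs of both lists, can also hold 2 cells in 1 droplet, and no doublet caller was used. Leaving out the deepest 5% of cells gave 7 members.

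**Figure D3:**
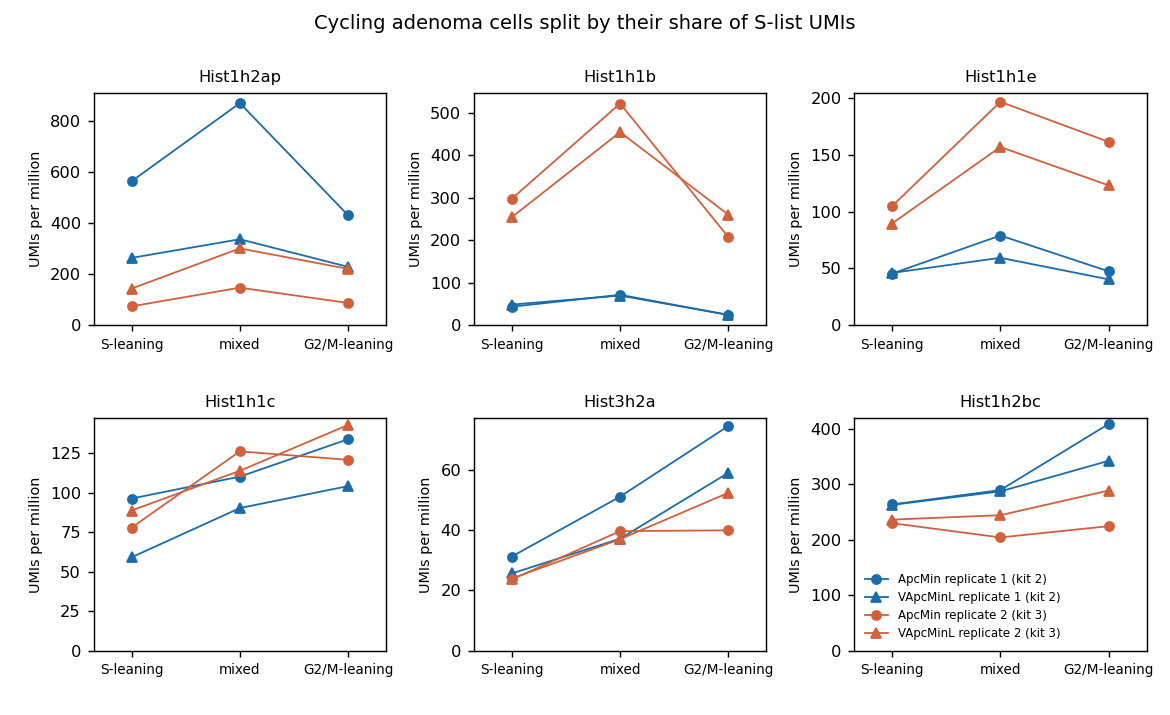
Cycling adenoma cells split by their share of S-list UMIs. CPM of 6 histone genes in S-leaning, mixed and G2/M-leaning cells, with 1 line per library, circles for ApcMin, triangles for VApcMinL, blue for kit 2 and orange for kit 3. Hist1h2ap, Hist1h1b and Hist1h1e peak in mixed cells in all libraries, whereas Hist3h2a and Hist1h1c are lowest in S-leaning cells.

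Genes that control histone transcription and mRNA processing were mostly higher in cycling cells, and more of them were higher than lower in S-leaning cells. The list held Slbp, Npat, Casp8ap2, Lsm10, Lsm11, Zfp473, Cpsf2, Cpsf3, Cstf2, Sympk, Eri1, Lsm1, Upf1, Hinfp, Pou2f1, E2f1, Cdk2, Ccne1, Ccne2 and Ccna2. Of 19 tested, 14 were higher, against 19.9% of all genes, and 1 lower, against 20.2%, in cycling adenoma cells, and 8 were higher, against 3.94%, and 2 lower, against 4.24%, in S-leaning than in G2/M-leaning cells. Slbp, for the stem-loop binding protein, had a log2 difference of 1.08 ± 0.07 (SE) in cycling cells and of 1.46 ± 0.10 (SE), edgeR adjusted p = 1.3e-05 in S-leaning cells. Its level was 157 and 150.2 (kit 2) and 113 and 122 (kit 3) CPM in S-leaning and 42.9 and 54.8 (kit 2) and 48.6 and 47.5 (kit 3) in G2/M-leaning cells, higher in the former in all libraries. Among the genes that start histone transcription, the cyclin E genes Ccne1 and Ccne2 were higher in S-leaning cells by 2.82 and 3.50, E2f1 by 2.56, Cdk2 by 1.11 and Npat by 0.54 on the log2 scale, as was Casp8ap2, a component of the histone locus body, by 1.06. Ccna2, for cyclin A, which takes over from cyclin E and persists into G2, had a value of -1.68.

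Histone chaperones, which carry new histones to DNA, had 10 of 12 members higher and 0 lower in cycling cells, where 19.9% of all genes were higher and 20.2% lower. The list held Nasp, Asf1a, Asf1b, Chaf1a, Chaf1b, Hira, Daxx, Atrx, Supt16, Ssrp1, Anp32e and Hjurp. Among the S-phase chaperone genes, Asf1b rose by 3.54, the CAF-1 subunit genes Chaf1a and Chaf1b by 2.20 and 1.86, and Nasp by 1.47. These 4 were also higher in S-leaning than in G2/M-leaning cells, by 0.64, 1.15, 1.37 and 0.64, while 2 members of the list, Anp32e and Hjurp, were lower. Replication-independent histone genes, which are polyadenylated and replace histones outside S phase, had 7 of 11 higher and 1 lower in cycling cells, and 1 higher and 7 lower in S-leaning cells, beside the same shares of all genes (19.9% and 20.2%, and 3.94% and 4.24%). These were H2afz, H2afv, H2afx, H2afy, H2afy2, H2afj, H3f3a, H3f3b, H1f0, H1fx and Cenpa. H2afx, whose mRNA can end in either a stem-loop or a tail, rose by 2.26 in cycling cells and H2afz by 1.18, and both were lower in S-leaning than in G2/M-leaning cells, with values of -1.36 and -0.53. Cenpa, the histone H3 of centromeres, had values of 2.62 for cycling and -3.39 for S-leaning cells. H3f3a, for a replacement H3, was lower in cycling cells by a log2 difference of -0.16.

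Adenoma cells were then compared with crypt-gated cells of the same cycling state, library by library. Both genes of the Hist3 cluster on chromosome 11 that are members, Hist3h2a and Hist3h2ba, were higher in adenoma cells. In cycling cells 50 members were tested, 4 were higher, against 23.4% of all genes, and 9 lower, against 20.1%, both shares being at or under those of all genes. In non-cycling cells 29 were tested, 2 were higher, against 7.44%, and none was lower by edgeR, against 8.4%, with 1 at an unadjusted p under 0.05 and none by DESeq2. The gate of adenoma cells on Wnt targets and of crypt-gated cells on few of these UMIs sets which cells were compared. The cells of the 2 classes come from the same tumour pools.

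Hist3h2ba, an H2B gene at chr11:58948920-58949533 on the plus strand, stood at 27.8 and 22.6 (kit 2) and 19.9 and 25.6 (kit 3) CPM in cycling adenoma cells and at 3.04 and 3.44 (kit 2) and 1.02 and 1.98 (kit 3) in cycling crypt-gated cells. All 4 adenoma values lay above all crypt values, with a log2 difference of 3.36 ± 0.22 (SE), edgeR adjusted p = 5.6e-06, and the call was kept in 16 of 16 alternatives. In non-cycling cells the values were 21.1 and 35.2 (kit 2) and 31.3 and 22.3 (kit 3) against 2.29 and 1.03 (kit 2) and 2.85 and 12.1 (kit 3) (2.07 ± 0.50 (SE), edgeR adjusted p = 0.028). Free RNA held 11.8 and 6.73 (kit 2) and 8.15 and 14.6 (kit 3), so the crypt values lay under the free RNA level and those of adenoma cells above it. Hist3h2a, an H2A gene at chr11:58954685-58956830 on the plus strand, stood at 53.8 and 40.9 (kit 2) and 33.9 and 38.5 (kit 3) in cycling adenoma cells against 31.3 and 9.84 (kit 2) and 15.5 and 20.5 (kit 3) in cycling crypt-gated cells, again without overlap (1.00 ± 0.16 (SE), edgeR adjusted p = 9.3e-04). Its non-cycling values were 47.7 and 86.4 (kit 2) and 56.8 and 46.6 (kit 3) against 16.8 and 28.8 (kit 2) and 8.56 and 26.8 (kit 3) (1.27 ± 0.23 (SE), edgeR adjusted p = 0.01). Free RNA held 46.8 and 39.0 (kit 2) and 34.1 and 37.1 (kit 3) of it, above the crypt values in every library and close to the values of cycling adenoma cells. Hist3h2a overlaps Trim17 on the same strand, so UMIs of the 2 genes cannot be fully separated. Without VApcMinL replicate 1 neither non-cycling call was kept.

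Neither gene was particular to adenoma cells. Cycling immune cells, few in number, held Hist3h2a at 57.7 and 83.0 (kit 2) and 26.5 and 41.5 (kit 3) and Hist3h2ba at 19.2 and 45.3 (kit 2) and 6.63 and 6.91 (kit 3) CPM. Non-cycling other epithelial cells held 14.7 and 11.2 (kit 2) and 10.4 and 16.5 (kit 3) of Hist3h2a and 2.08 and 1.02 (kit 2) and 0.645 and 3.67 (kit 3) of Hist3h2ba, below the adenoma values in every library. The other 2 members higher in cycling adenoma than in cycling crypt-gated cells were Hist1h2bc (log2 difference 0.62 ± 0.09 (SE), edgeR adjusted p = 5.2e-04) and Hist1h1c (0.42 ± 0.09 (SE), edgeR adjusted p = 0.0032), the 2 genes that lead in non-cycling cells. The crypt-gated levels of both lay under free RNA in every library, as did the adenoma level of Hist1h1c and, in 3 of 4 libraries, that of Hist1h2bc. Lower in cycling adenoma cells were Hist1h2af, Hist1h4h, Hist2h4, Hist2h2aa1, Hist1h4d, Hist1h1e, Hist1h1d, Hist1h2ae and Hist1h2ap, with log2 differences from -0.92 to -0.34. Not all of these calls were stable. Of 16 alternatives, Hist1h4d and Hist1h1e kept the call in 15, Hist1h2ae in 12, Hist1h2ap in 10, Hist2h4 in 9 and Hist1h1d in 6. Of the comparison lists, 4 of 11 tested replication-independent histone genes were higher, against 23.4% of all genes, and 1 lower, against 20.1%, in cycling adenoma cells, led by H2afy2, a macro-type H2A, at 4.03 and H1fx, a linker histone, at 3.64. Beside the same shares, the mRNA control genes had 4 of 19 tested higher and 3 lower, and the chaperones none of 12 higher and 2 lower.

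**Figure D4:**
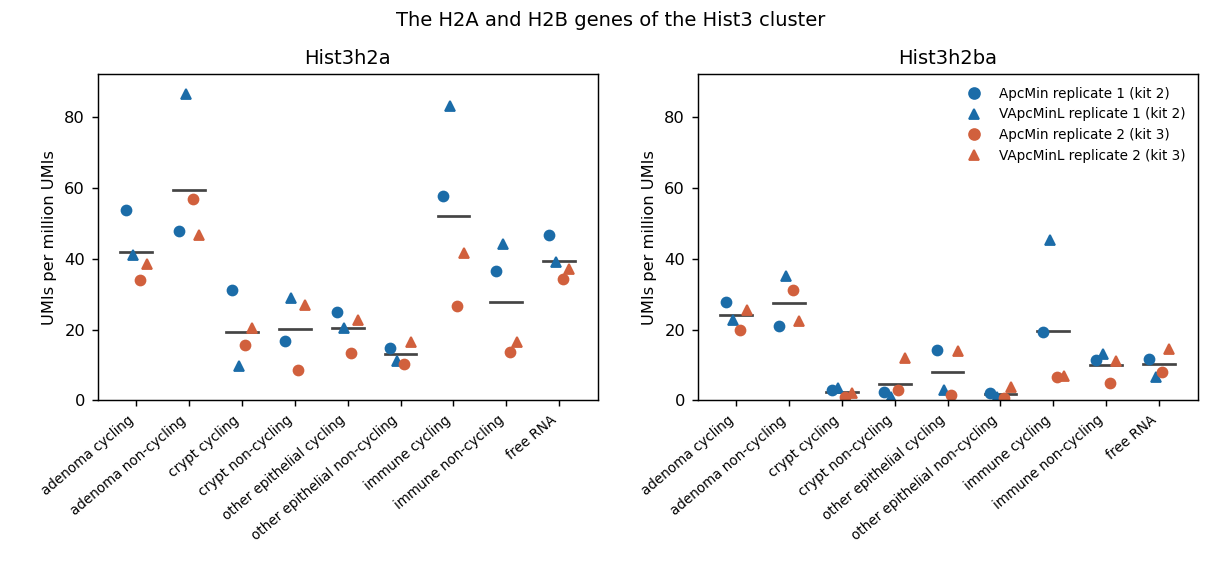
The H2A and H2B genes of the Hist3 cluster. CPM of Hist3h2a (left) and Hist3h2ba (right) in each cell class, cycling state and free RNA, with 1 point per library and a line at the mean of 4 libraries, circles for ApcMin, triangles for VApcMinL, blue for kit 2 and orange for kit 3. Both genes are higher in adenoma than in crypt-gated and other epithelial cells, and Hist3h2a in free RNA lies at 34.1 to 46.8.

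The study's own contrast was that of the 2 genotypes, VApcMinL against ApcMin, with the kit as a block and 2 libraries per genotype. No histone gene was called by this test. The adenoma cells compared were gated on Wnt target genes that the paper reports as lower after Lef1 deletion in another Apc-mutant model. The gate can therefore take different cells in the 2 genotypes, and how far it did was not tested. The genotype results stand for the gated cells only. In cycling adenoma cells 52 members were tested and none was called, against 0.00811% of all genes, with 0 at an unadjusted p under 0.05 by edgeR and none called by DESeq2. The median log2 difference of the members was -0.24, beside 0.00 for all genes. In non-cycling adenoma cells 31 were tested, none was called, against 0% of all genes, 0 had an unadjusted p under 0.05, DESeq2 called none, and the median was -0.07. Xist was the only gene called in cycling cells (12.4 ± 0.37 (SE), edgeR adjusted p = 0.036). In non-cycling cells it was not called at 15.6 ± 0.66 (SE), so the test missed even a very large difference. Xist was far higher in VApcMinL in both kits, so genotype cannot be told apart from a possible difference in sex. The summed level of cycling cells was 1617 ± 68.7 (SD, n = 2) in ApcMin and 1383 ± 455 in VApcMinL (exact permutation test, two-sided, p = 1). With 2 libraries against 2 the exact permutation test cannot go below p = 0.33. The difference in cycling effect between the genotypes was called for none of 50 members, against 0.0159% of all genes, with 2 at an unadjusted p under 0.05 by edgeR.

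The precision differed between genes. Hist1h2bc, at 334 and 299.9 (kit 2) and 226 and 259 (kit 3), had a genotype difference of 0.00 ± 0.21 (SE) on the log2 scale and Hist1h1b, at 46.1 and 47.4 (kit 2) and 338 and 327 (kit 3), one of -0.02 ± 0.17 (SE). The 2 pairs went apart for Hist1h2ap. Its difference was -1.25 in the kit 2 pair and 1.21 in the kit 3 pair, and -0.02 ± 0.68 (SE) over both. Over all members the median was -0.38 in the kit 2 pair and -0.11 in the kit 3 pair. ApcMin replicate 1, the library with the highest Hist1h2ap level, also had 575 to 624 CPM of red blood cell genes in adenoma cells against 0.447 to 30.5 in the other libraries, and ApcMin replicate 2, with the lowest, was the library that lost most barcodes to the mitochondrial limit. The part of either in the Hist1h2ap levels was not tested.

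**Figure D5:**
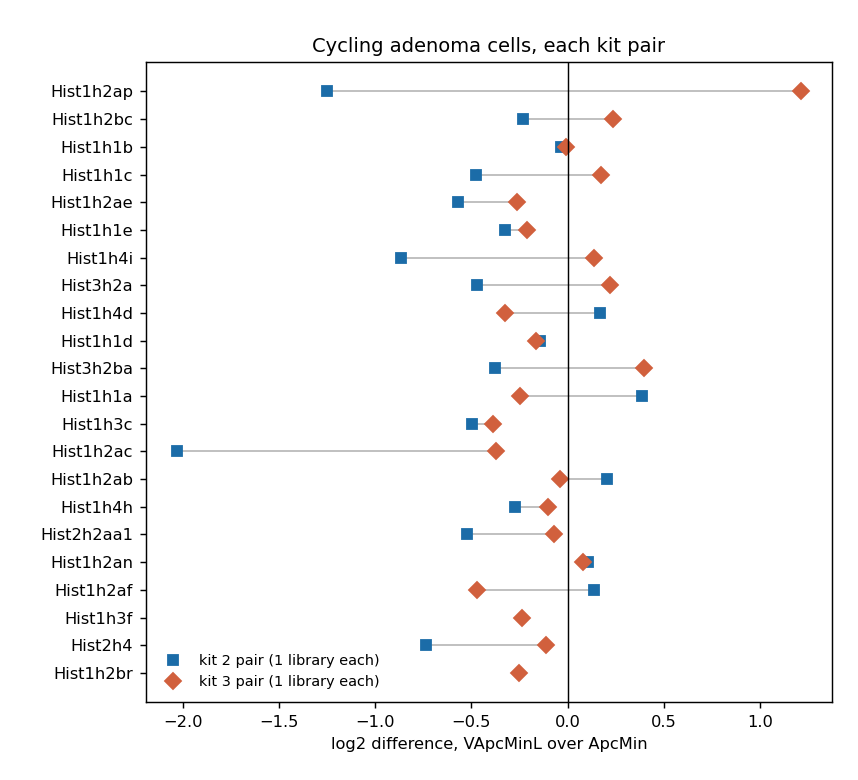
Log2 difference of VApcMinL over ApcMin in cycling adenoma cells for the named histone genes, with 1 library of each genotype per kit, squares for the kit 2 pair and diamonds for the kit 3 pair, and a vertical line at 0. Hist1h2ap lies at -1.25 in one pair and 1.21 in the other, while Hist1h1b lies near 0 in both, and no kit 2 value is drawn for Hist1h3f and Hist1h2br.

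Levels of several members also differed between the kits. Hist1h1b and Hist1h1d were called higher with kit 3 than with kit 2 in cycling adenoma cells, against 0.178% of all genes, in a test added after seeing the data with the genotype in the model. Hist1h1b had a log2 difference of 2.63 ± 0.18 (SE), edgeR adjusted p = 0.039. Hist1h1d, at 5.09 and 4.86 (kit 2) and 47.0 and 40.8 (kit 3) CPM, had one of 2.93 ± 0.20 (SE), edgeR adjusted p = 0.039. None was called lower, against 0.243% of all genes. At an unadjusted p under 0.05, 21 members were higher and 4 lower with kit 3. Hist1h2br had no UMI in cycling adenoma cells with kit 2 and 6.62 and 5.41 CPM with kit 3, and Hist1h2ac stood at 2.48 and 0.627 with kit 2 and 28.2 and 21.2 with kit 3. The kits also came with different annotations and tumour pools, which cannot be told apart from the chemistry. In non-cycling cells no member was called for the kit, against 0% of all genes, with 9 at an unadjusted p under 0.05 by edgeR, and the cycling effect differed between the kits for none of 50 members, against 0.0238% of all genes, with 10 at an unadjusted p under 0.05.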

How the data were processed

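Single-cell 3′ libraries of 4 pools of intestinal adenomas were analysed, 2 labelled ApcMin and 2 VApcMinL. The authors deposited raw counts, the whole-number UMI counts per gene and barcode before any cell filter. The submitters' processing notes name Cell Ranger 2.1.1, Seurat 3.1.1 and the builds mm10 and GRCm38. The headers of the kit 3 files name a later software version, and which version made these tables is not settled. Reads were mapped and collapsed to UMIs there, and reads that match more than 1 place equally well are not counted by that software, which lowers the counts of near-identical histone genes.

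Barcodes with at least 2000 UMIs and at most 20% mitochondrial UMIs were kept. Cells were gated on raw UMIs of marker lists: adenoma at 5 UMIs of 7 markers, other epithelial and crypt-gated cells at most 2 of these, crypt at 5 UMIs of 6 crypt markers (Olfm4, Lgr5, Ascl2, Slc12a2, Smoc2 and Rgmb), immune at 3 UMIs, and cycling at 3 UMIs. The gate values were set after cell numbers were seen. No doublet caller was used, and leaving out the deepest 5% of cells was tried instead. Counts were summed per library, class and state, and genes were tested with edgeR 4.0.16 in R 4.3.3 (TMM scaling, filterByExpr, quasi-likelihood test, Benjamini-Hochberg adjustment over all genes tested, calls at an adjusted p under 0.05), with the library as a block, or the kit as a block for the genotypes. Replicates 1 share kit 2 and replicates 2 kit 3 per the labels, and deviations from the group means correlated within a kit (r = 0.343 over 12325 genes in cycling adenoma cells), so number and kit pair the libraries. Nothing states whether a pool came from 1 or several animals, so p-values stand for these pools only. In tests of the genotypes and of kit levels they measure the spread between pools. With the library as a block they measure how far the differences within libraries vary.

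DESeq2 1.42.0, other scaling, filters, gates, kits and each library left out were alternatives. In data simulated for the cycling comparison, 189 of 200 genes changed by 1 on the log2 scale were recovered with 3 false calls among 12490 genes, and in those for the genotype comparison of cycling cells 190 of 200 changed by 1.5, with 13 false calls among 12190 genes. All genes were drawn with a dispersion of 0.02, and only genes above a limit on mean counts were changed. The recovery therefore does not stand for genes with lower counts or a larger spread between libraries. Intervals and limits from counts cover counting error only. Members and lists were chosen with earlier results of these data known. Named with values were the 10 most abundant members in either state, the 5 largest rises and falls called between states and phases, and members called elsewhere, and other called members are given by name. Stem-loops were searched in GENCODE M21 transcripts, and promoters and the motifs in them came from RefSeq tables.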

Additional observations from a re-analysis of the deposited data

Results flagged for a closer look

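Hist1h2bk, an H2B gene, had a larger cycling effect in immune than in adenoma cells. The 2 log2 effects were 4.66 ± 1.06 (SE) apart (edgeR interaction term, adjusted p = 0.049), a test that called 0.323% of all genes in this direction. It rests on few molecules: cycling immune cells of the 4 libraries held 3, 5, 1 and 1 UMIs of the gene and non-cycling immune cells 0, 1, 0 and 0.

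Hist1h2ap differed between VApcMinL and ApcMin in opposite directions in the 2 kits, which was noticed among the 10 most abundant members of cycling adenoma cells. The log2 difference was -1.25 in the kit 2 pair, with levels of 615 in ApcMin and 273 in VApcMinL, and 1.21 in the kit 3 pair, with levels of 99.5 and 225 CPM. With 1 library of each genotype per kit this difference between the pairs was not tested.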

How the results depend on the processing

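Of 1729 values recomputed under alternatives none reversed, though counts of members and summed levels have no sign and could not reverse. Among counts of members, medians and summed levels, 368 stayed within 1.5 times or the spread of the libraries and 64 moved, and 1101 of single-gene calls were kept and 196 lost. The cause of these moves was not tested. The pairing by library, or by kit for the genotypes, mattered most: without the replicate block, cycling adenoma cells had 15 members higher and 0 lower, cycling adenoma against crypt-gated cells 1 higher and 3 lower, cycling crypt-gated cells 6 higher and 0 lower, other epithelial cells 21 higher, immune cells 5 higher, S-leaning cells 0 lower, mixed cells 0 higher, and the non-cycling genotype median was -0.13. For S-leaning against G2/M-leaning cells, members higher and lower were 3 and 5 with kit 2 alone, 2 and 7 with a cycling gate of 5 UMIs and 2 and 6 with a gate of 2 per 10000 UMIs, 2 were higher with no filter on low counts and 1 without the deepest 5% of cells, and 6 were lower with DESeq2 and 5 with adenoma and crypt gates of 10 UMIs. With kit 2 alone, 4 members were lower in cycling adenoma cells, 5 were lower in cycling and 4 higher in non-cycling adenoma than crypt-gated cells, 7 were higher in cycling crypt-gated cells, 9 higher and 1 lower in cycling immune cells and 3 higher in mixed cells. With kit 3 alone these were 1 lower in cycling adenoma cells, 2 higher and 5 lower in cycling and 0 higher in non-cycling adenoma than crypt-gated cells, 0 lower in cycling crypt-gated cells, 7 higher in cycling immune cells and 1 higher in mixed cells. In cycling crypt-gated cells 23 were higher with no filter, 19 higher and 2 lower with the gate per 10000 UMIs, 7 higher and 0 lower with gates of 10 UMIs and 2 lower with a cycling gate of 5. In non-cycling adenoma against crypt-gated cells 4 were higher with no filter and 5 with the gate per 10000 UMIs, and 1 was lower in cycling immune cells with no filter. The non-cycling genotype median was -0.20 in the kit 2 pair. The summed level of non-cycling crypt-gated cells was 603 CPM as reported, 705 without the deepest cells, 479 with gates of 10, 678 as a mean over cells and 729.8 thinned to 2000 UMIs per cell, and that of other epithelial cells 830.0 with a mitochondrial limit of 10%. Leaving out 1 library at a time gave 2 to 12 members lower and 0 to 1 higher in S-leaning cells, 0 to 2 higher in non-cycling adenoma against crypt-gated cells, 5 to 15 higher and 0 to 1 lower in cycling crypt-gated cells, 0 to 1 lower in cycling immune cells and 2 to 6 higher in mixed cells, and non-cycling genotype medians of -0.17 to -0.10. The lowest came without VApcMinL replicate 2 for S-leaning and crypt-gated counts, without VApcMinL replicate 1 for non-cycling adenoma against crypt-gated cells (0, and 1 without ApcMin replicate 1), without ApcMin replicate 1 for mixed cells and without ApcMin replicate 2 for the genotype median. With 1 library of a genotype left out, no test of the genotypes was possible and values alone were computed. The low numbers of cycling immune cells and non-cycling crypt-gated cells limit those classes most.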
